A study of Homo sapiens with 6 samples.

Results

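The genes described here encode 10 enzymes that make, phosphorylate, repair or divert nicotinamide adenine dinucleotide (NAD), or that break down tryptophan through kynurenine on the way to it: QPRT, KYNU, NADSYN1, NMNAT1, NMNAT3, NAMPT, NAPRT, NNMT, NADK and NAXE. They were taken by symbol from a count table of 54261 gene symbols. QPRT was picked because its reads were much higher in the PHF8 knockout libraries, so its difference between the groups is given as a description with no test. The others were listed for their place in the pathway, but with earlier results of these data known, so counts of them are a description too. RNA was sequenced from 786-O, an established human line from a clear cell carcinoma of the kidney, without working VHL. The PHF8 knockout group (3 libraries) had received guide RNA against PHF8 and the control group (3 libraries) control guide RNA, both by CRISPR-Cas9, and all were grown in RPMI-1640 with serum. PHF8 removes methyl groups from histones. Whether the knockout cells were pooled or 1 clone, and whether each library had its own culture, is not in the labels. The p-values therefore set the group difference only against the spread among these libraries, and that spread may be technical. In bulk RNA, fewer cells with a transcript and less of it per cell cannot be told apart.

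Cells make NAD along several routes. The route from tryptophan runs through kynurenine to quinolinate, which QPRT joins to a phosphoribosyl group to give nicotinic acid mononucleotide. The salvage routes start from nicotinamide, through NAMPT, or from nicotinic acid, through NAPRT. NMNAT enzymes then form the dinucleotide, and NADSYN1 amidates the nicotinic acid form to NAD. The full route from tryptophan is known chiefly from liver and kidney, and NAMPT carries most NAD synthesis in many cultured cells.

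Library totals ran from 25632275 to 29095133 reads in the PHF8 knockout group and from 21533615 to 25055762 in the control group. The targeted gene PHF8 had 259, 167 and 348 reads in knockout libraries 1, 2 and 3, against 833, 876 and 881 in control libraries 1, 2 and 3, a log2 fold change of -1.78 (SE 0.21; edgeR quasi-likelihood, p adjusted by Benjamini-Hochberg = 1.19e-04). Levels are given in counts per 1e+06 reads (CPM), with library sizes scaled by TMM factors. All 9 marker genes of a renal carcinoma line averaged over 1 CPM. Of 7 leukocyte markers, PTPRC, CD3E and LYZ were at 0 reads in every library, and the list's summed level ran from 125 to 131 CPM in knockout and from 52.2 to 56.1 CPM in control libraries, mostly CD68. The summed levels of 5 endothelial markers, 2.96 to 4.52 CPM in knockout and 2.05 to 2.32 CPM in control libraries, and of 5 fibroblast and pericyte markers, 3.19 to 4.41 CPM and 7.02 to 8.57 CPM in the same order, were low. The 5 hepatocyte markers summed to at most 0.0833 CPM in any knockout and 0.0878 CPM in any control library. Knockout library 2 stood apart from its group: the chi-square per degree of freedom between libraries was 68.1 against knockout library 1 and 52.7 against knockout library 3, but 10.2 between libraries 1 and 3. Control library 1 stood apart to a smaller extent, at 11.9 and 13.9 against control libraries 2 and 3, which had 2.95 between them. At an adjusted p under 0.05, 59.7% of the 14398 genes tested were called, 28.9% as higher and 30.8% as lower in knockout cells. Length and GC content of transcripts went along with the fold changes: the median log2 fold change was 0.33 in the shortest and -0.59 in the longest of 4 equal bins of genes, and -0.63 in the lowest and 0.43 in the highest of 4 bins of GC content. Values with an offset that removes both trends are therefore given where they alter a result.

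QPRT and KYNU, the members with the largest fold changes, have few CpG dinucleotides before their starts. The 250 bases before the RefSeq transcript start (build GRCh38.p14) are shown for the 3 members with the largest positive fold changes and for NAMPT, which did not pass, with each CpG in capitals; they lie at chr16:29678930-29679179 on the plus strand for QPRT, chr2:142877414-142877663 on the plus strand for KYNU, chr11:71452953-71453202 on the plus strand for NADSYN1 and chr7:106284984-106285233 on the minus strand for NAMPT, each written 5′ to 3′ toward its gene.
QPRT: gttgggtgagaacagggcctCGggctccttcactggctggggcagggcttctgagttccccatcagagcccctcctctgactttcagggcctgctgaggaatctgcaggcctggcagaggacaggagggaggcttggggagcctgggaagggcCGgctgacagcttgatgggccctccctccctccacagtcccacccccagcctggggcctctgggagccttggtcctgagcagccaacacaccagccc
KYNU: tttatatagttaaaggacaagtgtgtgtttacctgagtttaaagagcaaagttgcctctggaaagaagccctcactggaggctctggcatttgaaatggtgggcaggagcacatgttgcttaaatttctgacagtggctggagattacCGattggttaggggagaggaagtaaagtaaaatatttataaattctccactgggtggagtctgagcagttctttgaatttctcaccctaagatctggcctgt
NADSYN1: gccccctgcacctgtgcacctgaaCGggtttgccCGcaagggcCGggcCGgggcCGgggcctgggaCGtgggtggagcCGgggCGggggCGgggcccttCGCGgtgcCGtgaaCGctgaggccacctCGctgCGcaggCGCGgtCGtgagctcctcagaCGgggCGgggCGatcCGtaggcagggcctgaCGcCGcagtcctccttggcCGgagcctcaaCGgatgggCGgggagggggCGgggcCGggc
NAMPT: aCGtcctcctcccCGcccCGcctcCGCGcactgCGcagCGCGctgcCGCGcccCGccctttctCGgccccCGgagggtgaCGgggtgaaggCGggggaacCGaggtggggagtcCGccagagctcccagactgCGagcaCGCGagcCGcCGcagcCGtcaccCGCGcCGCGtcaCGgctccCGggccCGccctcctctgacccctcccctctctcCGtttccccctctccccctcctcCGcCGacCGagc
QPRT has 2 CpG and KYNU 1 CpG in this window, while NADSYN1 has 29 and NAMPT 34. The RefSeq table matched 7 of the 10 members, and the median over its 35116 windows of this length was 11 CpG; as few as in QPRT occurred in 22.9% of them. A second listed start of QPRT has 1 CpG in its window. Among tested genes with a listed start and at most 2 CpG in the window of the first start, 24.1% of 428 were called higher and 37.4% lower, against 29.3% and 33.6% of the 9571 with more. Motifs were searched on both strands of the windows of the 7 matched members. QPRT, at both starts, and KYNU held none of GCGTG (the core site of the aryl hydrocarbon receptor), ACGTG (hypoxia-inducible factors), TGACNNNGC (the antioxidant response element) and TGATGNAA (a site of ATF4 with C/EBP factors), which occur in 32.2%, 18.5%, 10.9% and 3.14% of all windows. GCGTG and ACGTG differ in their first letter, and hits on opposite strands may overlap. NADSYN1 held 1 ACGTG and 1 TGACNNNGC, and NAMPT 1 GCGTG and 1 TGACNNNGC. NMNAT1 held 1 GCGTG, NMNAT3 held 2 GCGTG at each of its 2 starts, and of the 3 starts of NADK the first held 1 GCGTG, the second 2 ACGTG and the third no match. A match describes letters and does not show binding.

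QPRT (quinolinate phosphoribosyltransferase; ENSG00000103485.19, chromosome 16, 29663279 to 29698699, GRCh38, plus strand) had 7959, 8099 and 8330 reads in knockout libraries 1, 2 and 3, against 340, 404 and 418 reads in control libraries 1, 2 and 3. Its scaled levels were 331, 327 and 306 CPM in knockout cells and 14.9, 16.2 and 15.6 CPM in control cells. The groups were far apart and the libraries within each lay close together, with means of 322 ± 13.5 CPM in knockout and 15.6 ± 0.63 CPM in control cells (SD, n = 3 each). The log2 fold change was 4.37 (SE 0.10), or 20.6-fold, which ranked 25th from the highest among the tested genes. It was between 4.35 and 4.41 with any single library left out and 3.93 with the length and GC offset. Knockout library 2, which stood apart across the transcriptome, was not apart from libraries 1 and 3 for QPRT.

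The tested protein-coding gene closest to QPRT is SPN, which encodes the leukocyte surface protein sialophorin and was added after its values were seen. It lies on the same strand, 8131 bases before QPRT in RefSeq, and overlaps it in GENCODE. SPN had 882, 471 and 769 reads in knockout libraries 1, 2 and 3, against 73, 59 and 85 in control libraries 1, 2 and 3, a log2 fold change of 3.26 (SE 0.26; edgeR adjusted p = 2.38e-05). In the GENCODE annotation the QPRT and SPN genes share 38 exonic bases, and reads there could not be told apart. Among tested protein-coding genes that do not overlap QPRT, the nearest before it, LAT, lay 672495 bases away and had a log2 fold change of 2.79 (SE 0.37; edgeR adjusted p = 2.40e-04), SPNS1 had 0.71 and NFATC2IP 0.01; after QPRT, KIF22 at 92028 bases had 0.27, MAZ 0.80 and PRRT2 -0.16. The log2 fold change of SPNS1 was 0.16 with the offset and that of KIF22 -0.21. LAT was low, with 54, 114 and 88 reads in knockout libraries 1, 2 and 3, against 9, 8 and 19 in control libraries 1, 2 and 3. PRRT2 was low as well, at 0.66 CPM in knockout and 0.74 CPM in control cells. LAT, an adaptor of T cell receptor signalling, is likewise known from leukocytes, whose summed markers were higher in knockout libraries while PTPRC and CD3E were at 0 reads; their part in these results was not tested.

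**Figure D1:**
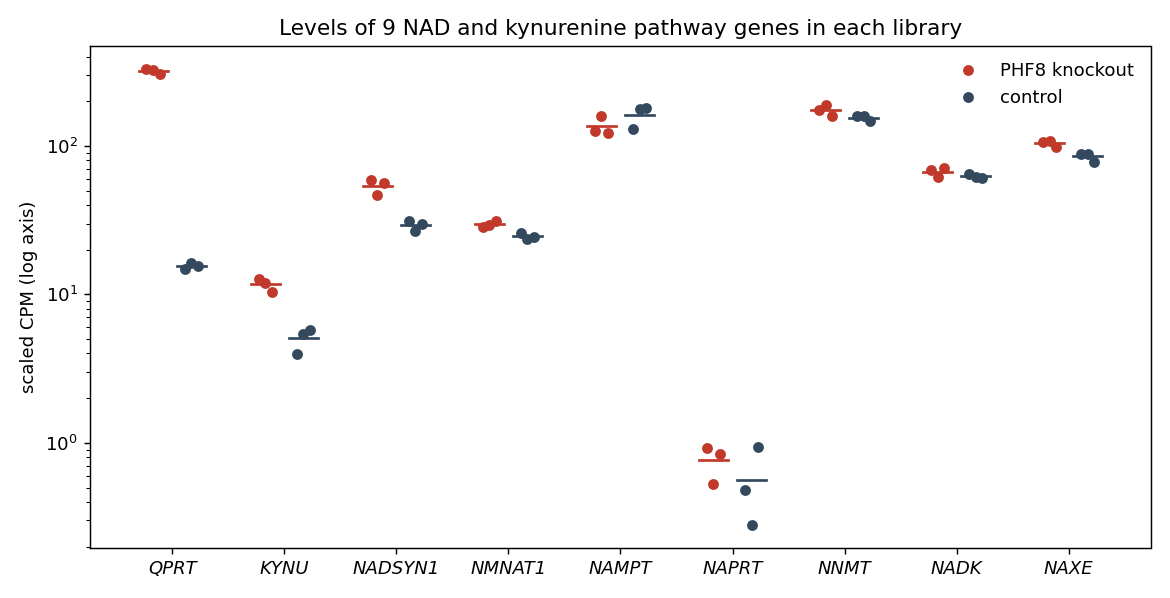
Scaled CPM on a log axis for 9 of the 10 genes (NMNAT3, with 0 to 2 reads per library, is left out), with a point for each library and a bar at the mean, PHF8 knockout left of control. QPRT lies at 306 to 331 CPM in knockout and 14.9 to 16.2 CPM in control cells, KYNU and NADSYN1 are also apart, and NAMPT, NAPRT, NNMT and NADK overlap.

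Apart from QPRT, 8 of the 9 members were tested, and 3 of them, KYNU, NADSYN1 and NAXE, rose. Of all tested genes 28.9% were called higher and 30.8% lower. None of the 8 fell by edgeR, DESeq2 or limma-voom, which called 4435, 4350 and 4483 of all genes lower. The count was also 0 at an unadjusted p under 0.05 with each of these tools. The share of all genes at that cutoff was not taken, so this count is not read as a result about the members. The median log2 fold change of the 8 was 0.28, against -0.01 over all tested genes. In 4 of the 8 the knockout libraries lay wholly above the control libraries and in the other 4 the groups overlapped; over all tested genes 66.8% had groups that did not overlap, 32.6% with knockout and 34.2% with control above. KYNU was called and over 2-fold higher, as were 9.20% of tested genes, and none of the 8 was over 2-fold lower, as were 14.2%. With the offset 4 of the 8 were higher (30.8% of tested genes) and 2 lower (28.4%). Without knockout library 2, 4 of the 8 were higher, NMNAT1 being added, and 1, NAMPT, was lower. In that setting 4647 of all genes were called higher and 4895 lower.

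KYNU, kynureninase, cleaves kynurenine and 3-hydroxykynurenine and so stands before quinolinate in the pathway (chromosome 2, 142877657 to 143055833, GRCh38). It had 306, 298 and 281 reads in knockout libraries 1, 2 and 3, against 90, 136 and 154 reads in control libraries 1, 2 and 3. Every knockout library was above every control library, and control library 1 was the lowest. The level was 11.7 ± 1.24 CPM in knockout and 5.05 ± 0.97 CPM in control cells (SD, n = 3 each), a rise of 2.31-fold (log2 fold change 1.21, SE 0.18; edgeR adjusted p = 4.09e-04). The rise was larger with the length and GC offset, 2.46 on the log2 scale, where KYNU counts as a long, GC-poor gene: its canonical transcript in GENCODE has 15151 bases and a GC content of 36.4%.

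NADSYN1, NAD synthetase, performs the final amidation on the routes from tryptophan and nicotinic acid (chromosome 11, 71453109 to 71524107, GRCh38). It had 1420, 1159 and 1525 reads in knockout libraries 1, 2 and 3, against 715, 671 and 795 reads in control libraries 1, 2 and 3. The groups did not overlap, with 54.0 ± 6.44 CPM in knockout and 29.3 ± 2.28 CPM in control cells (SD, n = 3 each). The rise was 1.84-fold (log2 fold change 0.88, SE 0.12; edgeR adjusted p = 3.12e-04). It passed with every library left out in turn and with the offset (0.50).

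NMNAT1, the nuclear enzyme that joins the mononucleotide to an adenylyl group (chromosome 1, 9943428 to 9985501, GRCh38), had 28.6, 29.1 and 31.1 CPM in knockout libraries 1, 2 and 3, against 26.1, 23.6 and 24.4 CPM in control libraries 1, 2 and 3. Although the libraries did not overlap, the log2 fold change of 0.26 (SE 0.11) did not pass (edgeR adjusted p = 0.057). It passed without knockout library 2 (0.28, adjusted p = 0.032), without control library 1 (0.32, adjusted p = 0.036), with the stricter filter (0.27, adjusted p = 0.043) and with the offset (0.46, adjusted p = 0.0011; 0.0011 to 0.48 over all alternatives). NMNAT3, the mitochondrial form, had 0 reads in all 3 knockout libraries and 0, 1 and 2 reads in control libraries 1, 2 and 3. It was not tested, and 0 of 80648498 knockout reads allows a level of up to 0.0372 CPM, counting error only.

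NAMPT, the rate-limiting enzyme of salvage from nicotinamide (chromosome 7, 106248298 to 106285966, GRCh38), had 126, 158 and 123 CPM in knockout libraries 1, 2 and 3, against 129, 177 and 181 CPM in control libraries 1, 2 and 3. The groups overlapped, knockout library 2 and control library 1 lying toward the other group, and the log2 fold change of -0.26 (SE 0.15) did not pass (edgeR adjusted p = 0.17). Its direction depended on the scaling: it was lower with library totals only (-0.42, adjusted p = 0.040) and without knockout library 2 (-0.38, adjusted p = 0.028), but higher with the offset (0.52, adjusted p = 3.01e-04; 3.01e-04 to 0.49 over all alternatives). Its canonical transcript has a GC content of 34.4%. The near-identical copy NAMPTP1 on chromosome 10 held 107, 138 and 123 reads in knockout and 117, 185 and 193 reads in control libraries, so the split of reads between them is uncertain. NAPRT, which starts salvage from nicotinic acid, was barely detected, with 22, 13 and 23 reads in knockout libraries 1, 2 and 3, against 11, 7 and 25 reads in control libraries 1, 2 and 3. It passed the filter on low counts, which takes libraries of either group together, with reads in both groups. Those groups overlapped and no difference was detectable at this depth (log2 fold change 0.41, SE 0.44; edgeR adjusted p = 0.44); without control library 3 the log2 fold change was 1.02 (adjusted p = 0.090), and with the offset it was -0.24.

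NNMT methylates nicotinamide and thereby removes it from salvage, and it is known for high levels in clear cell renal carcinoma. The gene (chromosome 11, 114257787 to 114313536, GRCh38) had 176, 190 and 159 CPM in knockout libraries 1, 2 and 3, against 160, 158 and 147 CPM in control libraries 1, 2 and 3. The groups overlapped and the log2 fold change of 0.17 (SE 0.10) did not pass (edgeR adjusted p = 0.15); it was -0.07 with the offset. NADK, the cytosolic kinase that forms NADP (chromosome 1, 1751232 to 1780457, GRCh38), had 68.8, 61.7 and 70.7 CPM in knockout libraries 1, 2 and 3, against 64.6, 62.2 and 60.7 CPM in control libraries 1, 2 and 3. These groups overlapped as well (log2 fold change 0.10 ± 0.10, SE; edgeR adjusted p = 0.39). With the offset NADK was lower (-0.17, adjusted p = 0.037; 0.023 to 0.66 over all alternatives).

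NAXE, an epimerase that repairs hydrated NADH and NADPH (chromosome 1, 156591756 to 156609507, GRCh38), had 107, 108 and 98.0 CPM in knockout libraries 1, 2 and 3, against 88.8, 88.3 and 77.8 CPM in control libraries 1, 2 and 3. The groups did not overlap and the gene rose 1.23-fold (log2 fold change 0.30, SE 0.10; edgeR adjusted p = 0.026). The call was lost without knockout library 1 (adjusted p = 0.068), when control library 2 (0.063) or 3 (0.11) was left out, with no filter (0.066) and when scaled by library totals only (log2 fold change 0.13, adjusted p = 0.28; 0.0090 to 0.28 over all alternatives). With the offset NAXE was lower (-0.27, adjusted p = 0.0090) by its canonical transcript and higher (0.47) by its longest one. It shares 4534 exonic bases with GPATCH4 on the opposite strand, which had a log2 fold change of 0.37 (SE 0.10; edgeR adjusted p = 0.011). The call of GPATCH4 was lost with the offset (0.10, adjusted p = 0.26) and when scaled by library totals only (0.20, adjusted p = 0.12; 0.0055 to 0.26 over all alternatives). Whether the counting used strand is not known.

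**Figure D2:**
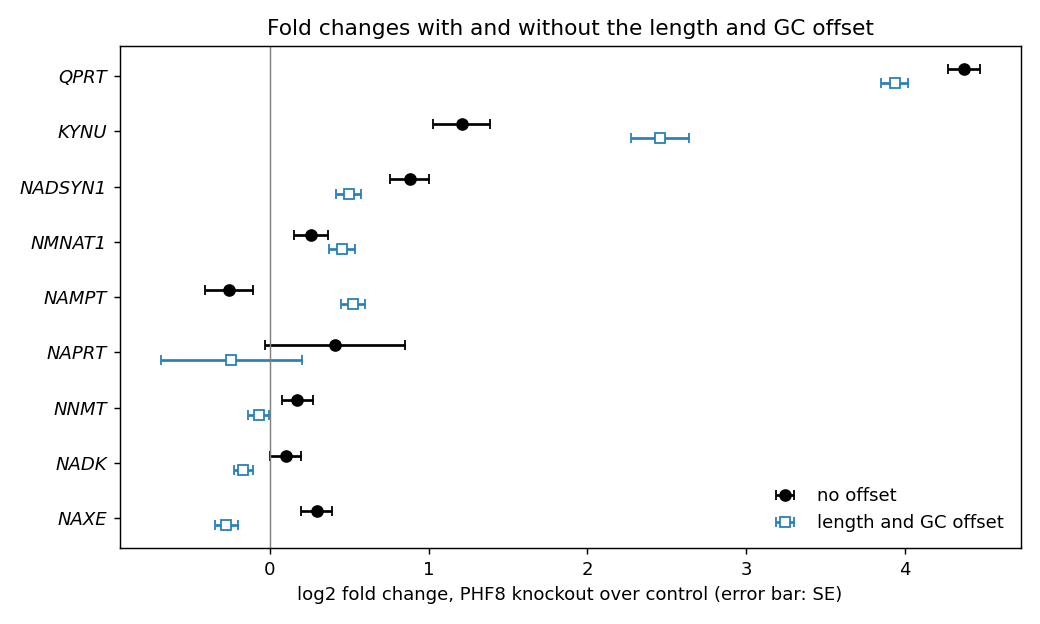
Log2 fold change of PHF8 knockout over control for the 9 tested genes, with SE bars, without an offset (black circles) and with the length and GC offset (open squares). QPRT, KYNU, NADSYN1 and NMNAT1 lie above 0 both ways, while NAMPT, NAPRT, NNMT, NADK and NAXE change sign.

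Per length, QPRT took the first place among the 10 members in knockout cells, at 146 ± 6.1 RPKM (SD, n = 3; CPM per kilobase of canonical transcript), and the 6th in control cells, at 7.08 ± 0.29 RPKM. NAXE (93.9 RPKM) and NNMT (87.0 RPKM) followed in knockout cells within each other's spread, then NAMPT (31.2 RPKM), NADK (20.7 RPKM) and NADSYN1 (20.2 RPKM), of which the last pair overlapped. In control cells the order was NNMT (77.1 RPKM), NAXE (76.5 RPKM), NAMPT (37.3 RPKM), NADK (19.3 RPKM), NADSYN1 (10.9 RPKM), QPRT and NMNAT1 (6.62 RPKM). There NNMT and NAXE overlapped, as did QPRT and NMNAT1. KYNU stood at 0.77 RPKM in knockout and 0.33 RPKM in control cells by its canonical transcript; by its shortest annotated coding transcript, of 662 bases, it would be 17.7 RPKM and 7.63 RPKM, so its place in the order is uncertain. The same holds for other members: NAMPT would be 284 RPKM in knockout and 339 RPKM in control cells by its shortest coding transcript, and NAXE 31.9 and 26.0 RPKM by its longest. NAPRT (0.45 RPKM in knockout, 0.34 RPKM in control cells) and NMNAT3 (0 and 0.019 RPKM) were low in both groups.

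Of the 10 other genes on the list from tryptophan to quinolinate, 5 passed the filter on low counts and 5 did not. TDO2, IDO1 and IDO2, which open the tryptophan ring, had at most 1 read in any knockout library and at most 3 in any control library. HAAO, the dioxygenase that makes the precursor of quinolinate, had 0 reads in all 6 libraries, which allows up to 0.0372 CPM over the knockout and 0.0426 CPM over the control group (3 reads per group). KMO, the kynurenine hydroxylase, had 2, 8 and 12 reads in knockout libraries 1, 2 and 3, against 13, 31 and 21 reads in control libraries 1, 2 and 3. It passed the filter on low counts only with the control libraries, where it was higher. The filter thus favoured a fall, and the values of KMO are a description. Its log2 fold change was -1.58 (SE 0.50; edgeR adjusted p = 0.022), a call lost without knockout library 1 (adjusted p = 0.055), without control library 2 (adjusted p = 0.093) and with the offset (-0.86, adjusted p = 0.15; 0.0017 to 0.15 over all alternatives). AFMID, which hydrolyses formylkynurenine, rose to 18.4 ± 1.84 CPM in knockout cells, against 11.5 ± 0.67 CPM in control cells (SD, n = 3 each; edgeR adjusted p = 0.0018), a call lost with the offset (0.23, adjusted p = 0.068). KYAT1, an aminotransferase of kynurenine, rose 1.37-fold (adjusted p = 0.036), a call lost without knockout library 1 or 3, without control library 2 or 3, when scaled by library totals only or with the offset (0.01; adjusted p 0.0060 to 0.95 over all alternatives). The aminotransferases KYAT3 (log2 fold change -0.35) and AADAT (-0.47) did not pass, but both were lower without knockout library 2 (-0.58 and -0.67). Apart from QPRT, which was chosen on this contrast, 6 of the 12 genes of this list were tested, of which 3 rose and 1, KMO, fell (28.9% and 30.8% of all tested genes). With the offset KYNU alone of these 6 rose and none fell (30.8% and 28.4% of all tested genes).

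**Figure D3:**
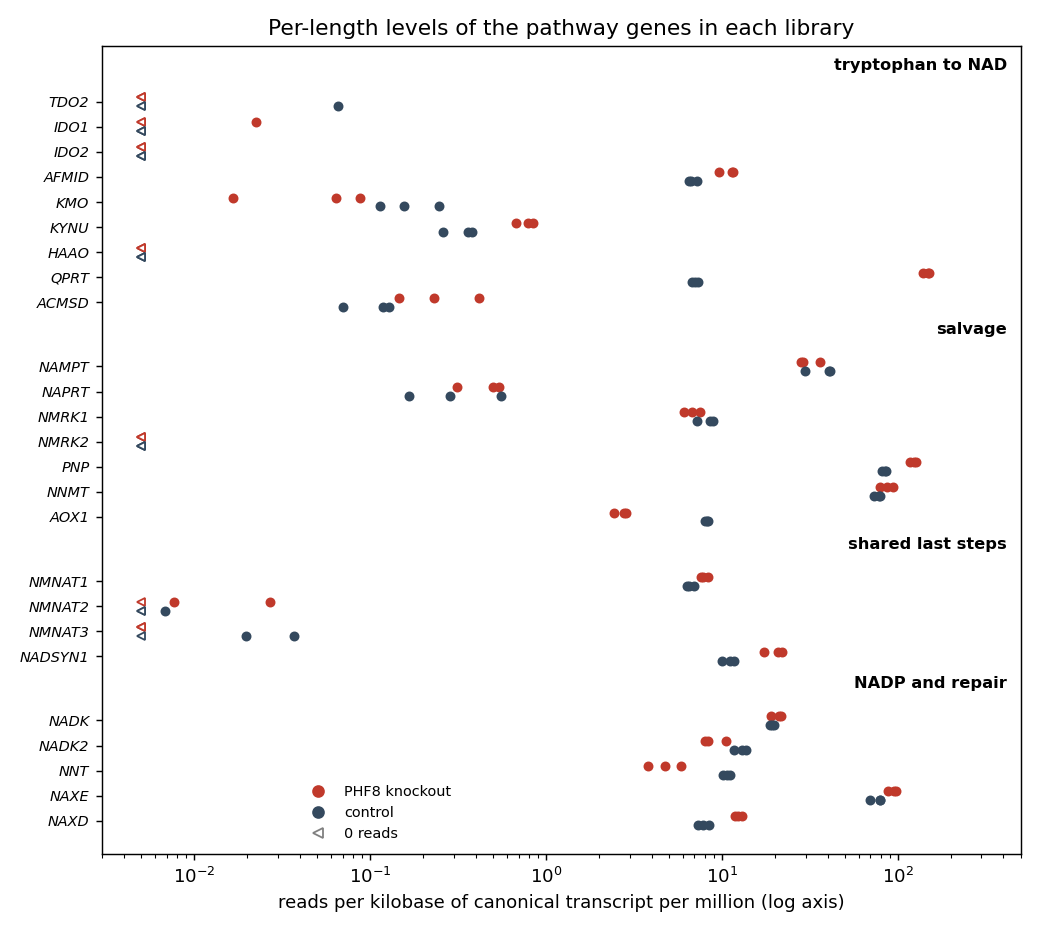
Level of each pathway gene in each library, in RPKM on a log axis, PHF8 knockout above control; open triangles mark 0 reads. QPRT lies above 100 RPKM in knockout cells while HAAO, IDO2 and NMRK2 have 0 reads in every library.

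Among 13 genes of salvage and nicotinamide clearance 9 were tested, of which 2 rose, 1 fell and 6 did not pass (28.9% and 30.8% of all tested genes rose and fell). With the offset 4 rose and 1 fell (30.8% and 28.4% of all tested genes). PNP, which releases nicotinamide or nicotinic acid from their ribosides, rose to 181 ± 6.31 CPM in knockout cells, against 124 ± 4.07 CPM in control cells (SD, n = 3 each; edgeR adjusted p = 5.93e-04), and NADSYN1 was the other. AOX1, an oxidase that takes methylated nicotinamide onward, fell to 13.2 ± 1.12 CPM in knockout cells, against 40.4 ± 0.93 CPM in control cells (SD, n = 3 each), a log2 fold change of -1.61 ± 0.11 (SE; edgeR adjusted p = 1.38e-05). It was lower in all 3 knockout libraries and remained so with the offset (-1.25). The riboside kinase NMRK1 (log2 fold change -0.29) and the mitochondrial NAD carrier SLC25A51 (-0.30) did not pass.

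The 9 genes of NADP formation, transhydrogenation and repair were split, 4 rising and 3 falling (28.9% and 30.8% of all tested genes). With the offset the balance turned, 3 rising and 4 falling (30.8% and 28.4% of all tested genes). NAXD, the dehydratase that works beside NAXE, rose 1.58-fold and HDDC3, an NADPH phosphatase, 2.02-fold (edgeR adjusted p = 8.12e-04 and 4.27e-04). NNT, the mitochondrial transhydrogenase, fell to 30.8 ± 6.73 CPM in knockout cells, against 68.7 ± 3.17 CPM in control cells (SD, n = 3 each; edgeR adjusted p = 2.41e-04), but by only 0.35 on the log2 scale with the offset. NADK2, the mitochondrial NAD kinase, fell 1.43-fold (adjusted p = 0.0080) and its log2 fold change lay at 0.02 with the offset (adjusted p = 0.85; 2.66e-04 to 0.85 over all alternatives).

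Of 24 enzymes that consume NAD, 22 were tested, 6 rose and 9, BST1 among them, fell (28.9% and 30.8% of all tested genes). With the offset the balance turned, 9 rising and 6 falling, as it did over all tested genes (30.8% rising and 28.4% falling). The median log2 fold change was 0.02 with the offset and -0.16 without it. Over all tested genes it was 0.02 and -0.01 in the same order. The sirtuin genes SIRT6 and SIRT7 rose 2.35-fold and 2.18-fold (edgeR adjusted p = 5.24e-05 and 6.22e-05; 0.60 and 0.55 on the log2 scale with the offset). PARP12, an antiviral mono-ADP-ribosyltransferase, rose to 88.7 ± 5.83 CPM in knockout cells, against 32.0 ± 0.66 CPM in control cells (SD, n = 3 each; adjusted p = 1.14e-05), and PARP10, another transferase of this family, rose 1.92-fold. BST1, an ADP-ribosyl cyclase of the cell surface, had 8, 3 and 37 reads in knockout libraries 1, 2 and 3, against 194, 183 and 199 reads in control libraries 1, 2 and 3. It passed the filter on low counts only with the control libraries, where it was higher. The filter thus favoured a fall, and the values of BST1 are a description. Its log2 fold change was -3.63 (SE 0.51; edgeR adjusted p = 3.10e-04), and -5.07 without knockout library 3 or -3.15 without knockout library 2. TNKS2, a tankyrase, fell 2.73-fold (-0.72 on the log2 scale with the offset) and PARP2, a DNA damage sensor, 1.65-fold. PARP1, the main sensor of DNA breaks, did not pass (log2 fold change -0.17, SE 0.10), but was lower with library totals only (-0.34, adjusted p = 0.016; 0.016 to 0.80 over all alternatives). The related cyclase CD38 had 1 read in all.

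Genes that carry tryptophan and kynurenine into cells included strong risers. SLC3A2 and SLC7A5, the chains of the large neutral amino acid transporter, rose 3.12-fold and 2.32-fold (edgeR adjusted p = 5.62e-06 and 1.53e-04). SLC7A5 had 802 ± 170 CPM in knockout and 345 ± 15.3 CPM in control cells (SD, n = 3 each). SLC36A4, a tryptophan and proline transporter, fell 2.93-fold (adjusted p = 4.51e-05; -0.61 on the log2 scale with the offset). Of 11 genes 7 were tested, 3 rose and 2 fell, SLC12A8 and NT5E being the others (28.9% and 30.8% of all tested genes). With the offset 4 rose and 2 fell (30.8% and 28.4% of all tested genes).

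Kynurenine is a ligand of the aryl hydrocarbon receptor, a transcription factor, and its gene and targets were read beside the pathway. AHR fell to 32.3 ± 0.89 CPM in knockout cells, against 79.6 ± 13.3 CPM in control cells (SD, n = 3 each; edgeR adjusted p = 6.61e-05), and by 0.53 on the log2 scale with the offset. Among its targets AHRR rose 1.95-fold, CYP1A1 1.80-fold, CYP1B1 1.47-fold and NQO1 1.38-fold (edgeR adjusted p = 9.31e-04, 0.0073, 0.0035 and 0.0017), while TIPARP fell 1.47-fold (adjusted p = 0.0018), a call lost with the offset (-0.06, adjusted p = 0.51; 4.90e-05 to 0.51 over all alternatives). CYP1A1 was low, with 55, 55 and 80 reads in knockout libraries 1, 2 and 3, against 28, 35 and 40 reads in control libraries 1, 2 and 3. Its call was lost with the offset from the longest transcript (0.48, edgeR adjusted p = 0.077; 0.0055 to 0.077 over all alternatives). In all 7 of 10 genes were tested, 4 rose and 2 fell (28.9% and 30.8% of all tested genes), and with the offset 4 rose and 1 fell (30.8% and 28.4%).

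**Figure D4:**
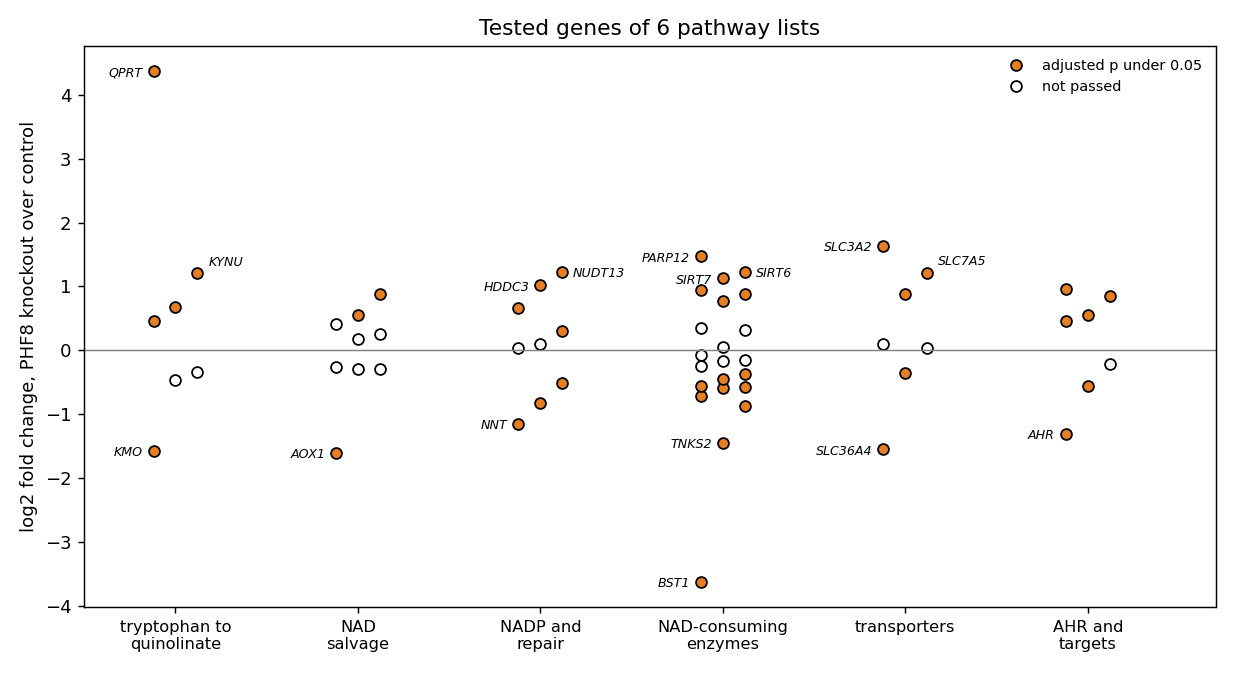
Log2 fold change of PHF8 knockout over control for each tested gene of 6 lists, filled where the adjusted p is under 0.05; genes past 1 on either side are named. QPRT, chosen on this contrast, is the highest at 4.37 and BST1 the lowest at -3.63, and each list holds filled points on both sides of 0. BST1 passed the filter on low counts only with the control libraries.

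Many genes followed QPRT across the 6 libraries. Of 9800 protein-coding genes averaging 5 CPM or more, 351 had a Pearson correlation above 0.99 with the log2 level of QPRT, a measure that includes the difference between the groups over the same libraries. The 5 highest were STMN3, PPP1R15A, HEXDC, CHPF and GOLGA7B (r from 0.9993 to 0.9997), with log2 fold changes from 1.02 (PPP1R15A) to 3.36 (GOLGA7B). By deviations from the group means the 5 highest were ZNF791, GATA6, FAS, CPPED1 and EHHADH (r from 0.9904 to 0.9995), with log2 fold changes of -0.75 (ZNF791), -0.05 (GATA6), 0.05 (FAS) and 0.16 (CPPED1), and a large negative one for EHHADH. No gene was in both sets. By deviations from the group means, 5 of the 9800 genes had a correlation above 0.99. How many would do so by chance over 6 libraries was not tested, so these 5 are a description only.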

How the data were processed

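RNA of 786-O cells was sequenced in 3 PHF8 knockout and 3 control libraries. Per the labels' series design text, the authors filtered reads, mapped them to GRCh38 with HISAT2 (2.0.4, per the submitters' processing notes) and counted them per gene with HTSeq; no source used here gives the strand setting or annotation release. What the authors deposited are raw counts of reads. Columns were matched to samples by title.

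Knockout was tested against control with edgeR 4.0.16 (R 4.3.3): quasi-likelihood test, TMM factors, filterByExpr (14398 genes kept), group as the only term, Benjamini-Hochberg adjustment over all tested genes, threshold 0.05. The script was tested on simulated data. The SE was taken from the fold change and the root of F. CPM uses the same factors; RPKM divides by the Ensembl canonical transcript of GENCODE 44, which may not be the annotation counted. Alternatives were DESeq2 1.42.0, limma-voom (limma 3.58.1), a replicate block, robust dispersions, factors by median ratio or upper quartile, scaling by library totals only, a filter that is stricter (above 1 CPM in every library of 1 group) or absent, leaving out each library, and an offset that removes per-library lowess trends (span 0.3) with transcript length and GC content; the same offset from the longest transcript was added after seeing the data. The offset also removes group differences that follow length or GC content, and 92.4% of tested genes had both values. The members and gene lists were chosen with earlier results of these data known. The text names all members and PHF8, genes of the lists, those most correlated with QPRT, and the 3 nearest tested protein-coding genes on each side that do not overlap QPRT; SPN, GPATCH4 and NAMPTP1 were added after their values were seen. Depth was 21533615 to 29095133 reads per library.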

Additional observations from a re-analysis of the deposited data

How the results depend on the processing

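QPRT stayed between 3.88 and 4.41 on the log2 scale over every alternative, and KYNU and NADSYN1 passed as higher under each. The count of members called lower, 0, was 1 with library totals only (NAMPT), 2 with the length and GC offset (NADK, NAXE), 1 with the offset from the longest transcript, an alternative chosen after seeing the data, and 0 to 1 with a library left out; members called higher, QPRT included, numbered 3 to 5 with a library left out. With a library left out, 3586 to 4647 of all genes were called higher and 3584 to 4895 lower. Library totals only gave 3153 higher and 5441 lower, against 4158 and 4435.

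The offset turned the direction of these log2 fold changes, the second value being from the longest transcript: NAMPT to 0.52 and 0.73, NAPRT to -0.24 and -0.24, NNMT to -0.07 and -0.10, NADK to -0.17 and -0.20, NOCT to -0.39 and -0.42, PARP8 to 0.76 and 0.68, PARP14 to 0.11 and 0.14, TNKS to 0.43 and 0.36, and SLC29A1 to -0.33 and -0.37. By the canonical transcript alone it turned NADK2 to 0.022, NAXE to -0.27, NT5E to 0.0060 and KIF22 to -0.21, and by the longest alone PARP9 to 0.13. The cause was not tested.

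Libraries with the same replicate number did not deviate together (correlations 0.0200, -0.0440 and 0.0109), so these values gave no sign of pairs. Such correlations could miss pairs that share a deviation in few genes, and the labels do not state whether the numbers pair the libraries. With a replicate block 3895 genes were called higher and 4413 lower. Of the members 4 were higher, including QPRT, which was chosen on this contrast, and 0 lower. KIF22 lost its call with the block (0.27, edgeR adjusted p = 0.066). Depth limits what can be said of NAPRT, NMNAT3 and KMO, which had at most 31 reads in any library.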
